A study of Rattus norvegicus with 11 samples.

Results

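The 6 libraries described here are all from rats homozygous for the truncating R571X mutation of CSB (genotype CSBR571X/R571X), and they fall into 2 sets of 3 that the authors normalized separately. Set 1 holds homozygous replicates 1 to 3 and set 2 holds homozygous replicates 4 to 6, as numbered in the titles. They are 6 of the 11 libraries of a series that also holds 2 libraries titled heterozygous, whose genotype label writes one allele as R571X and the other as a dash, and 3 wild-type libraries. All were labelled as cerebellum cortex of 10-week-old rats of the strain the labels spell Sprague-Dawly (SD). Per the labels, frozen tissue was taken up in Trizol, and libraries were made from total RNA with a TruSeq kit and read in paired-end mode. No label says how many animals were used or whether any library pools tissue. Since the 2 sets share genotype, strain, age and labelled tissue, they show how far libraries of 1 group can lie apart. Separate animals are not named for the libraries, so p-values here reflect only how much these samples vary, and that variation may be technical.

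CSB, encoded by Ercc6, is a DNA-dependent ATPase of the SWI2/SNF2 family. It is recruited where RNA polymerase II stalls at a lesion and starts the transcription-coupled branch of nucleotide excision repair. In people, loss of CSB causes Cockayne syndrome, in which the nervous system is affected, and the cerebellum is one of the regions known to degenerate. The cerebellum is built mostly of granule cells, with Purkinje cells as its output neurons, and it borders the brainstem below and the meninges on its surface.

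The 6 libraries held 5450053 to 8723823 recovered reads each, of which 25.1% to 31.1% lay on assembled features with no gene name. All 6 list 23093 features in common, and the 16054 with a mean of at least 5 normalized reads were tested, 7640 of them with a gene name. Here a normalized read is a recovered read divided by a scaling factor computed over these 6 libraries together, because the deposited tables had been scaled apart. Of 20 marker genes of cerebellar granule and Purkinje neurons, 7 had values in any of these libraries and 3 passed the minimum. These were Aldoc with 90289 reads over the 6, Calb1, also of Purkinje cells, with 13350, and Neurod1 with 1186. Aldoc is on the list of astrocyte genes too, so its reads do not mark Purkinje cells alone. Pcp2, which marks Purkinje cells, was listed in 3 of the 6 libraries and had 0 reads in them, and Pvalb, also of Purkinje cells, had 4 reads over all 6. Pcp2 and Pvalb were thus at or near 0 where the label gives cerebellum, as were Eomes with 1 read and Itpr1 with 3. Like Pcp2, Eomes and Itpr1 were listed in 3 of the 6 libraries. The other 13 genes of the list had no values here and so were not analysed. Of 18 genes of cortical excitatory neurons, 10 had values and 6 passed the minimum. Over the 6 libraries there were 5424 reads of Neurod6 and 156112 of Slc17a7, while Bcl11b held 5, Lamp5 17 and Tle4 16. A place on that list does not mean that a gene, Slc17a7 included, is read in cortical neurons alone. The feature named Tbr1, after a gene of deep cortical neurons, held 3 reads while an unnamed feature over it on the same strand held 6911. A low value under a gene name thus does not by itself show that little of its RNA was there. For the cerebellar genes near 0 such unnamed features held few reads. Those over Eomes, Itpr1 and Pvalb held 21, 0 and 2 reads, and Pcp2 had 0 such features. Features beside these genes or on the other strand were not counted, so this does not show that their RNA was absent.

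Ercc6 (chromosome 16, 8734035 to 8804610, plus strand, rn6), the mutated gene, was read in all 6 libraries. It held 162, 166 and 159 normalized reads in replicates 1 to 3 and 130.1, 126 and 91.3 in replicates 4 to 6. The 3 libraries of set 1 lay close together and above all 3 of set 2, and replicate 6 was the lowest. Set 2 stood at 71.4% of set 1, with means of 162 ± 3.3 and 116 ± 21.4 (SD, n = 3 each). The log2 difference was -0.50 (SE 0.24) and missed the threshold (limma adjusted p = 0.968). An exact two-sided permutation test gave p = 0.1, the smallest that 20 arrangements of 3 against 3 allow. The wild-type libraries held 313, 429 and 376 on the same scale and the heterozygous ones 241 and 187, so both sets lay below all 5 other libraries. The 6 homozygous libraries together were at 37.3% of the wild-type mean of 373, and each value rests on 103 to 217 reads.

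The comparison of set 2 with set 1 asks how many features differ between libraries of 1 genotype. Of 16054 features tested, 3 passed an adjusted p of 0.05 in limma, which is 0.0187%. Of these, 1 was higher in set 2 (0.00623%) and 2 were lower (0.0125%), and none of them has a gene name. At an unadjusted p under 0.05 there were 773 features, or 4.81%. In 1715 features, or 10.7%, the 3 libraries of one set all lay above the 3 of the other. Homozygous replicates 4 to 6 against the wild type, treated the same way, also gave 3 calls, among 15861 features (0.0189%, with 828 features or 5.22% at an unadjusted p under 0.05). Homozygous replicates 1 to 3 against the heterozygous libraries gave 0 in limma among 15862 (0%), where 2211 features or 13.9% had an unadjusted p under 0.05. For that comparison edgeR called 8 features and DESeq2 399. These last comparisons share libraries with the comparison of the sets and are given as counts only. No label says what parted the sets, so the set and anything that differed with it cannot be told apart.

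**Figure D1:**
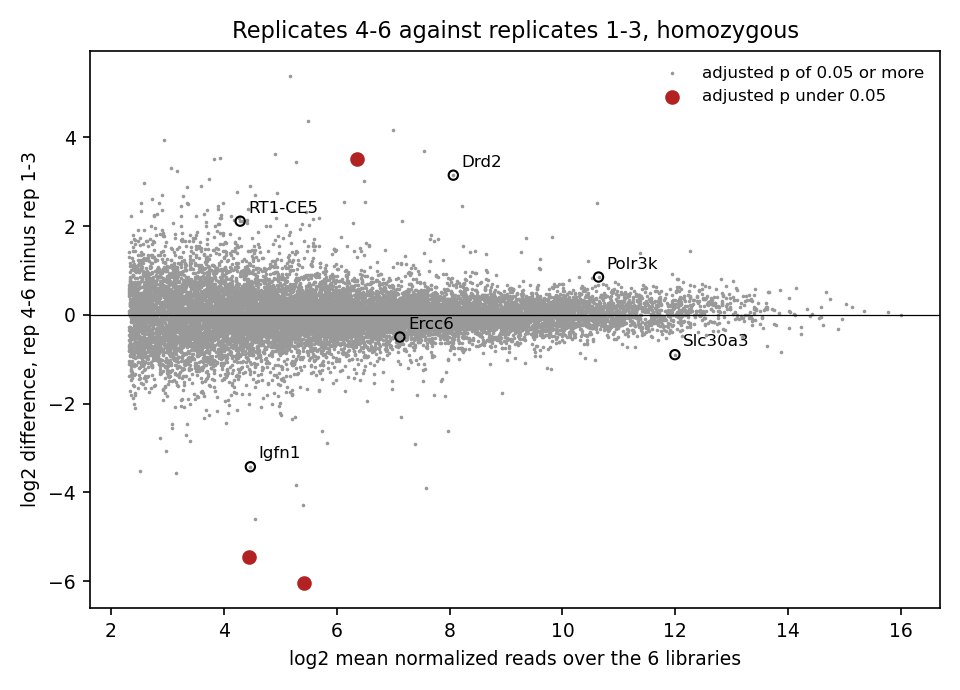
Each point is 1 of the 16054 features tested in the 6 homozygous libraries, with the log2 of its mean normalized reads on the x axis and the log2 difference of replicates 4 to 6 minus replicates 1 to 3 on the y axis. The 3 features past the threshold are red and lie at 3.50, -5.46 and -6.03, while the circled genes, Ercc6 at -0.50 among them, missed it.

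The 3 features past the threshold are assembled transcripts with no gene name, and the level in one set was far below that in the other. The one on chromosome 19, 28039685 to 28044531 (minus strand, rn6) held 41.1, 52.3 and 37.2 normalized reads in replicates 1 to 3 and 0 in each of replicates 4 to 6. It lies within 1 other unnamed feature on its strand and could share reads with it. Set 2 was at least 39.4-fold lower, taking 3 reads over the set as the floor (limma adjusted p = 0.0113). The heterozygous libraries held 53.6 and 33.2 and the wild-type ones 6.96, 11.9 and 19.3. The homozygous libraries of set 1 thus lay with the heterozygous libraries, and the wild type lay between them and set 2. The deposited tables of set 1 and of the heterozygous libraries each list 24436 features, and those of set 2 and the wild type 24792. The part of this grouping in that order was not tested.

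The feature on chromosome 6, 147447271 to 147447613 fell in the same direction. It held 53, 72.3 and 132 in set 1 and 0, 0 and 0.89 in set 2, which is 288 recovered reads against 1, a ratio of 235 (exact 95% interval 41.8 to 9303, counting error only). The log2 difference was -6.03 (SE 0.55, limma adjusted p = 0.0113). All 5 libraries of the other genotypes held between 54.4 and 142, so set 2 alone was near 0.

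The feature on chromosome 16, 8466951 to 8471344 (plus strand) rose in set 2. It held 13.4, 8.9 and 15.6 in set 1 and 167, 120.4 and 168 in set 2, a log2 difference of 3.50 (SE 0.33, limma adjusted p = 0.0113). It ends 262691 bases before the start of Ercc6 on the same chromosome and strand. The heterozygous libraries held 94.2 and 89.4 and the wild-type ones 23.2, 84.1 and 23.7, a range from close to set 1 to between the sets. None of the 3 calls was kept without replicate 1, 2, 3 or 4, all 3 were kept without replicate 5, and 2 without replicate 6.

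Among features with a gene name none passed, and the 4 with the smallest p in each direction are given as having missed the threshold. Polr3k, a subunit of RNA polymerase III (chromosome 3, 177374812 to 177379008), had little spread within either set. It held 1185, 1171 and 1059 normalized reads in replicates 1 to 3 and 2022, 2084 and 2049 in replicates 4 to 6, a log2 difference of 0.85 (SE 0.17, limma adjusted p = 0.565). The sets did not overlap, and the heterozygous (1080.2 and 848) and wild-type libraries (1059.6, 1127 and 1298) lay with set 1 rather than set 2. DESeq2 called Polr3k with an adjusted p of 0.024, and over all settings its adjusted p ran from 0.024 to 1.

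Rgs13, a regulator of G protein signalling, held 5.23, 6.68 and 3.46 in set 1 and 27.3, 27.7 and 23 in set 2 (log2 difference 2.17, limma adjusted p = 0.607). RT1-CE5, a class I histocompatibility gene, held 9.71, 5.56 and 5.19 and 40.9, 31.3 and 24.8 (log2 difference 2.11, limma adjusted p = 0.649). It lies under 3 other features on its strand and shares sequence with near-identical copies, so its value is uncertain. Rn60_7_1214.2, which has only a locus name (chromosome 7, 121342679 to 121343013), held 0, 0 and 2.6 and 114, 71 and 30.1, a ratio of 75.7 on 185 against 3 reads (exact 95% interval 25.5 to 370, limma adjusted p = 0.0802). The last gene passed in limma with a minimum mean of 1 or with none, and it was called in DESeq2. In each of these genes all 3 libraries of set 2 lay above all 3 of set 1.

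In the other direction, Igfn1, an immunoglobulin-like and fibronectin-like domain protein known from muscle, held 57.5, 15.6 and 51.9 in set 1 and 2.48, 1.2 and 4.43 in set 2 (log2 difference -3.42, SE 0.62, limma adjusted p = 0.502). Nilr1 held 13.4, 17.8 and 19.9 and 2.48, 0 and 0, a ratio of 23.2 on 57 against 2 reads (exact 95% interval 6.14 to 196). Dr1, a repressor that binds the TATA-binding protein, held 126, 132 and 90.9 and 57, 33.7 and 49.6 (log2 difference -1.31, SE 0.31). Slc30a3, the transporter that loads zinc into synaptic vesicles, held 6121, 4352 and 5405 and 2552, 3552 and 2456 (log2 difference -0.90, SE 0.21). Their limma adjusted p was 0.565 for Nilr1 and 0.895 for Dr1 and Slc30a3, and in none of the 4 did the sets overlap. Of the 4, Igfn1 alone was called in DESeq2.

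Genes of the interferon response had more positive than negative differences between the sets, without any call. Of 22 genes on the list, 14 were tested, and 12 had a positive difference with a median of 0.55, beside 48.8% positive and a median of -0.01 over all features. None passed the threshold, and 3 had an unadjusted p under 0.05, all higher in set 2, beside 2.79% of all features. Ifi27, an interferon-induced mitochondrial protein, held 1817, 3568 and 2937 in replicates 1 to 3 and 5906, 4413 and 4879 in replicates 4 to 6 (log2 difference 0.91, SE 0.26, limma adjusted p = 0.968). Ifit1, which binds viral RNA lacking the cap methylation of the host, held 44.1, 49 and 91.7 and 121, 126 and 105 (log2 difference 0.99). Ifit2, of the same family, held 109.8, 175 and 198 and 259, 237 and 251 (log2 difference 0.67). In these 3 of the 14 genes the sets did not overlap and set 2 was higher, beside 6.07% of all features. Replicate 3 lay nearer to set 2 than replicate 1 did.

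Ifit3 held 48.5, 101, 131, 191, 143 and 121 in replicates 1 to 6, and Cxcl10, a chemokine that draws in T cells, held 38.8, 20.03, 86.5, 65.7, 84.3 and 72.7. In both genes the sets overlapped through replicate 3, which held the most Cxcl10 of all 6. The mean of the 14 genes, as log2 of the normalized reads plus 1, was 6.199, 6.43, 7.21, 7.41, 6.99 and 6.92 in replicates 1 to 6. Replicates 1 and 2 were the lowest, and replicate 3 stood among the libraries of set 2. Set 1 was thus split within itself in this response.

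Promoters of these genes are shown because interferon acts through a short sequence element, the interferon-stimulated response element, whose core repeats GAAA with 2 bases between the repeats. The motif GAAANNGAAA was searched on both strands in RefSeq promoters of the build GRCr8, each running from 250 bases before the start to 50 after it. It is found in 1312 of 33469 promoters, or 3.92%. Of the 14 genes tested, 8 had a promoter in the table, and 6 of these held a match. Capitals mark the match in Ifi27 (chr6:128355062-128355361, plus strand), Ifit3 (chr1:241527076-241527375, plus strand) and Cxcl10 (chr14:15988816-15989115, plus strand), and in Ifit3 it reads on the other strand.
Ifi27: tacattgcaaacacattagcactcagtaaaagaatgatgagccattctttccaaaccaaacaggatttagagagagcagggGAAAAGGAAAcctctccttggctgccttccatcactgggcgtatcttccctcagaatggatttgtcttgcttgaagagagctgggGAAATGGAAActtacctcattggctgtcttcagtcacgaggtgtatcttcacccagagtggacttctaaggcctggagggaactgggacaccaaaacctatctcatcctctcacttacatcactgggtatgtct
Ifit3: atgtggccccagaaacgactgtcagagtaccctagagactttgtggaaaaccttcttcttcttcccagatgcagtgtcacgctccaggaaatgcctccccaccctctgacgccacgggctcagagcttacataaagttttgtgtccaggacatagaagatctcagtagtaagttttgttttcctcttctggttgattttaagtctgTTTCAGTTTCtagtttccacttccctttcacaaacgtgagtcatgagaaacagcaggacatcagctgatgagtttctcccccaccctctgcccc
Cxcl10: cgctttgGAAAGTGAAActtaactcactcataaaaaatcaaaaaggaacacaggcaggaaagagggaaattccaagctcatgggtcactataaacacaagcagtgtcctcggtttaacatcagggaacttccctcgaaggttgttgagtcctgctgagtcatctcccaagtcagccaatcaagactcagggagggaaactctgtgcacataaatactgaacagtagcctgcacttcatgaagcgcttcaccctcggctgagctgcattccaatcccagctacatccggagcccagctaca
Ifi27 has 2 matches, which begin 169 and 84 bases before its start, Ifit3 has one 44 bases before and Cxcl10 one 243 bases before. A match is a description of the letters and not evidence of binding in these libraries.

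Antigen presentation genes also had mostly positive differences, and their list mean was higher in each library of set 2 than in any of set 1. Of 14 tested, 11 had a positive difference, with a median of 0.54, and none passed. Of the 14, 5 had an unadjusted p under 0.05, beside 4.81% of all features, and all 5 were higher in set 2. Cd74, the invariant chain that guides class II molecules, held 1864, 1342 and 1192 in set 1 and 2188, 2831 and 2224 in set 2 (log2 difference 0.74, SE 0.22, limma adjusted p = 0.968). RT1-Db1, a class II beta chain, held 258, 148 and 159 and 311, 471 and 232, and RT1-A1, of class I, held 37.3, 38.9 and 23.4 and 120.2, 67.4 and 90.4. Cd74 and RT1-A1 did not overlap between the sets, while RT1-Db1 overlapped through replicates 1 and 6. In 4 of the 14 the sets did not overlap and set 2 was higher, beside 6.07% of all features. RT1-A1 lies under other features and shares sequence with close copies. B2m, the light chain of class I, held 9108, 12377, 14565, 21004, 16361 and 15489 in replicates 1 to 6, lowest in replicate 1 and highest in replicate 4. Of 6 genes of microglia, the cells that present antigen in brain, 4 had a positive difference, with a median of 0.09.

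Genes of the ribosome and of the nuclear-encoded respiratory chain also had mostly positive differences. Of 17 ribosomal protein genes tested, 15 had a positive difference (median 0.45), 5 of them at an unadjusted p under 0.05, beside 2.79% of all features that were higher in set 2 at that p, and none passed. Rpl37 held 851, 1102 and 1097 in set 1 and 2682, 2009 and 1074 in set 2 (log2 difference 0.83), and its high values lay in replicates 4 and 5 while replicate 6 fell inside set 1. Rps18 held 4036, 5869 and 6507 and 8360.3, 9198 and 6674 (log2 difference 0.58). Of the 17 genes, 13 were lowest in replicate 1 and 9 were highest in replicate 4, where 16.3% and 14.9% of all features had these places. Ribosomal protein genes have many pseudogenes that can take reads, so single values are uncertain.

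Of 16 features of nuclear respiratory chain genes, 15 had a positive difference (median 0.44), 6 of them at an unadjusted p under 0.05, again beside 2.79% of all features, and none passed. In 8 of the 16 the sets did not overlap and set 2 was higher, beside 6.07% of all features. Cox7a2, a subunit of cytochrome c oxidase, held 2404, 3723 and 3164 in set 1 and 5982, 5063 and 5012 in set 2 (log2 difference 0.81, SE 0.21, limma adjusted p = 0.968). Atp5o, of the ATP synthase stalk, held 3472, 4102 and 4360.3 and 6189.7, 5554 and 7072 (log2 difference 0.66), and Ndufb8, of complex I, held 2998, 4425 and 3843 and 6243, 4867 and 6914 (log2 difference 0.68). In all 3 genes replicate 1 was the lowest library, and 11 of the 16 features were lowest there. The deepest library was also replicate 1, with 8723823 reads, and the part of depth in this order was not tested.

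Respiratory genes read from the mitochondrial genome did not share that order. Mt-nd4, a complex I subunit, held 3888, 5899, 7720.2, 5433, 10429 and 1974 in replicates 1 to 6, and Mt-nd5 held 3164, 5559, 5671, 5318, 10131 and 1890.0. Replicate 5 was the highest and replicate 6 the lowest for all 4 features tested, so the extremes of all 6 libraries both lay in set 2. The median difference between the sets was 0.01. Mt-nd4 and its neighbours overlap other features on the same strand and are uncertain.

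Immediate early genes, which neurons switch on within minutes of firing, had mostly negative differences. Of 12 tested, 11 were negative with a median of -0.59, and none passed. Egr2, a zinc finger transcription factor, held 299, 369 and 249 in replicates 1 to 3 and 83, 364 and 44.3 in replicates 4 to 6 (log2 difference -1.44, SE 0.63, limma adjusted p = 0.968). Npas4, a factor specific to active neurons, held 197, 82.3 and 123 and 68.1, 147 and 25.7. Arc, which acts at synapses, held 1778, 4927 and 2104 and 2149.5, 4051 and 1035. Replicate 5 lay within the range of set 1 for these 3 and for Fosb, at 28.9. It lay below set 1 for Jun, at 2505, and for Nr4a3, at 10.8, which were both lowest in replicate 4. Replicate 6 was the lowest library for 8 of the 12 genes, where 20.5% of all features were lowest. In 0 of the 12 did all libraries of one set lie above the other, beside 10.7% of all features.

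Interneuron and neuropeptide genes were mostly positive, again with no call. Of 10 inhibitory interneuron features tested 8 were positive (median 0.39), and of 9 neuropeptide genes 8 were positive (median 0.60), beside 48.8% of all features. The lists share Sst, Crh and Cck. Sst, which encodes somatostatin, held 4749, 4892 and 3418 in set 1 and 6746, 7781 and 6492 in set 2 (log2 difference 0.70, SE 0.20, limma adjusted p = 0.968). Slc32a1, the transporter that loads GABA and glycine into vesicles, held 715, 724 and 928 and 2054, 947 and 1259. Crh, corticotropin-releasing hormone, held 84.4, 96.8 and 45 and 99.1, 190.2 and 135. None of these 3 genes, shown for their small p, overlapped between the sets, and Slc32a1 had its highest value in replicate 4. In 3 of the 10 interneuron features and 2 of the 9 neuropeptide genes the sets did not overlap. Set 2 was higher in each of them, beside 6.07% of all features. Pdyn, the precursor of dynorphins, held 460.0, 675, 298, 1526, 488 and 1133 in replicates 1 to 6, so replicate 5 fell inside set 1.

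Over all tested features, distances between libraries of the same set and of different sets had nearly the same average. The median absolute log2 difference was 0.45 on average over the 6 pairs within sets and 0.45 over the 9 pairs between sets. Pairs within set 1 ran from 0.38 to 0.46, within set 2 from 0.39 to 0.55 and between the sets from 0.38 to 0.53. Replicates 1 and 3 were nearest to each other, while the nearest library to replicate 2 was replicate 4, in the other set. Replicate 6 stood farthest off, with a mean distance of 0.50 against 0.43 to 0.45 for the other 5, and its nearest library was replicate 1. No test was made of these distances.

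**Figure D2:**
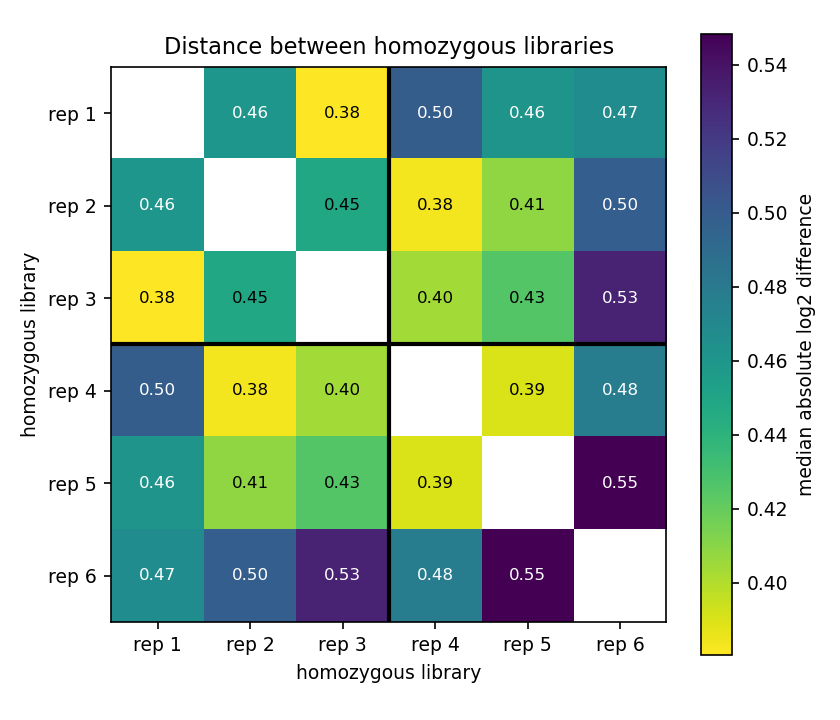
Each cell gives the median absolute log2 difference between 2 homozygous libraries over the 16054 features tested, and black lines part replicates 1 to 3 from replicates 4 to 6. The values run from 0.38 to 0.55, and those between the sets span much the same range as those within them. The largest, 0.55 and 0.53, are in the row of replicate 6.

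The SD of log2 normalized reads over the 6 libraries had a median of 0.45, and it was 0.37 within set 1 and 0.41 within set 2. A median SD over 3 libraries tends to be lower than one over 6 even where the sets do not differ. Of the sum of squares, 19.98% lay between the sets, and the sets take 20% of the degrees of freedom. The common biological coefficient of variation in edgeR was 36.4% for the 6 libraries as 1 group and 35.5% with the set as a term. The median SD was 0.70 for features with a mean of 5 to 20 normalized reads and 0.27 for those of 500 to 2000. In 1954 features, or 12.2%, all 6 libraries lay within 1.5-fold, and in 1527, or 9.51%, the SD was at least 1.

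The least variable named genes with a mean of at least 1000 show how close 6 libraries can be. Aldh5a1, which clears the GABA breakdown product succinic semialdehyde, held 3382, 3365, 3341, 3283, 3337 and 3257 in replicates 1 to 6, an SD of 0.021 on the log2 scale. Pnrc2, a cofactor of nuclear receptors and of messenger RNA decay, held 1066, 1136, 1133, 1105, 1132 and 1158. Pomgnt1, which builds sugar chains on dystroglycan, Rabl6 and Shc2 had an SD of 0.044 to 0.061. The ratio of the highest to the lowest library ran from 1.04 for Aldh5a1 to 1.12 for Shc2.

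Features at least 4-fold above or below all 5 other libraries, on the scale of normalized reads plus 1, were counted for each library. Replicate 6 had 56 above and replicate 4 had 25, against 1 to 12 in the other 4. Replicate 2 had 67 below and replicate 5 had 58, against 11 to 31 in the others. Replicates 1 and 3, both in set 1, had the fewest, with 1 and 2 above and 14 and 11 below.

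**Figure D3:**
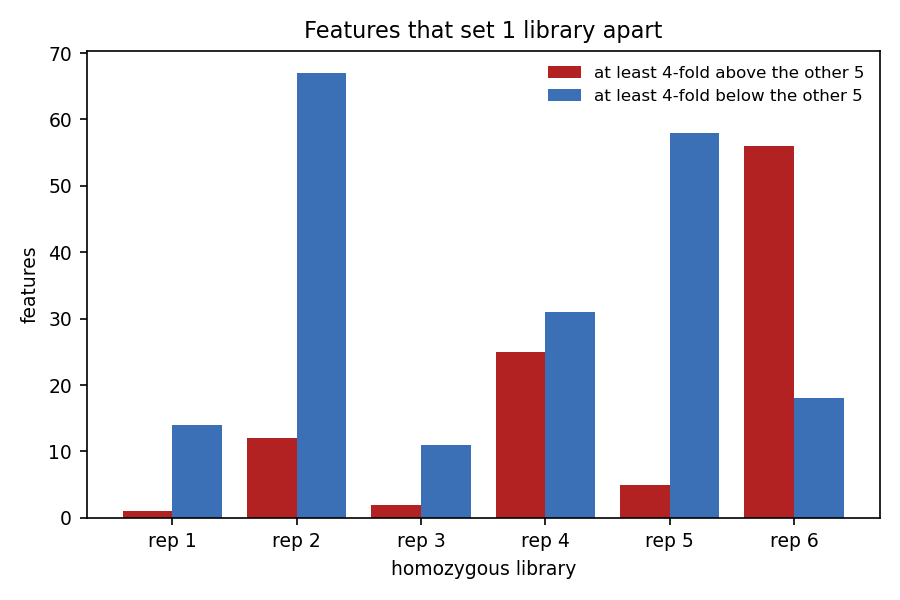
Bars count the features that lie at least 4-fold above (red) or below (blue) all 5 other homozygous libraries, for each library on the x axis. Replicate 6 leads above with 56 features, and replicates 2 and 5 lead below with 67 and 58.

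The widest spread of any named gene was that of Eif2s3y, a translation factor gene on the Y chromosome. It held 0.75, 1047, 972, 1103, 0 and 1662 in replicates 1 to 6, so replicates 1 and 5 had at most 1 read and the other 4 had far more. Each set holds 1 library without these reads and 2 with them. In all, 6 features, 4 on the Y and 2 unnamed ones on the X chromosome, separated the same libraries by at least 4 on the log2 scale, a share of 0.0374% of the features tested. The X-linked one at chromosome X, 74314653 to 74347926 ran the other way, with 2399.8, 5.56, 3.46, 7.43, 2040.4 and 12.4. Rn60_Y_0010.2, on the Y, held 0, 85.7, 99.5, 121, 0 and 116. With the presence of Eif2s3y reads as a covariate, 4 features passed between the sets, among them the same 3.

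Genes of meningeal fibroblasts, the cells of the brain's covering, split the 6 libraries within both sets. Col1a1, a fibrillar collagen chain, held 1023, 127, 1016, 197, 992 and 90.4 in replicates 1 to 6. Col3a1, another collagen, held 514, 81.2, 446, 173, 489 and 45.2, and Slc22a6, an organic anion transporter, held 362, 26.7, 295, 52, 366 and 14.2. Replicates 1, 3 and 5 were high and replicates 2, 4 and 6 low, and all 8 features tested of the 15 on the list had these 3 libraries highest, beside 7.52% of all features. The list mean, as log2 of normalized reads plus 1, was 8.21, 5.502, 8.12, 6.200, 8.06 and 5.33. Over the sets, 8 of 8 members had a negative difference with a median of -0.75, and set 2 holds 1 high library where set 1 holds 2. In bulk tissue, more cells of a type and more RNA per cell cannot be told apart.

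Myelin genes ran the other way. Cnp, an enzyme of myelin-forming cells, held 5024, 13543, 6085, 15831, 4059 and 16336 in replicates 1 to 6, and Mal, a myelin membrane protein, held 1547, 7344, 1444, 5834, 1171 and 7352. Opalin, made by oligodendrocytes, held 645, 2828, 553, 2034, 435 and 1967. Replicates 2, 4 and 6 were high, and 6 of the 7 features tested had these 3 libraries highest, beside 7% of all features, while Mbp did not. The list mean was 9.83, 11.2, 9.87, 10.95, 9.39 and 11.12. The 3 libraries highest in meningeal genes were thus the 3 lowest in myelin genes, and no feature of either list passed between the sets. The part of tissue makeup in the other differences was not tested.

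**Figure D4:**
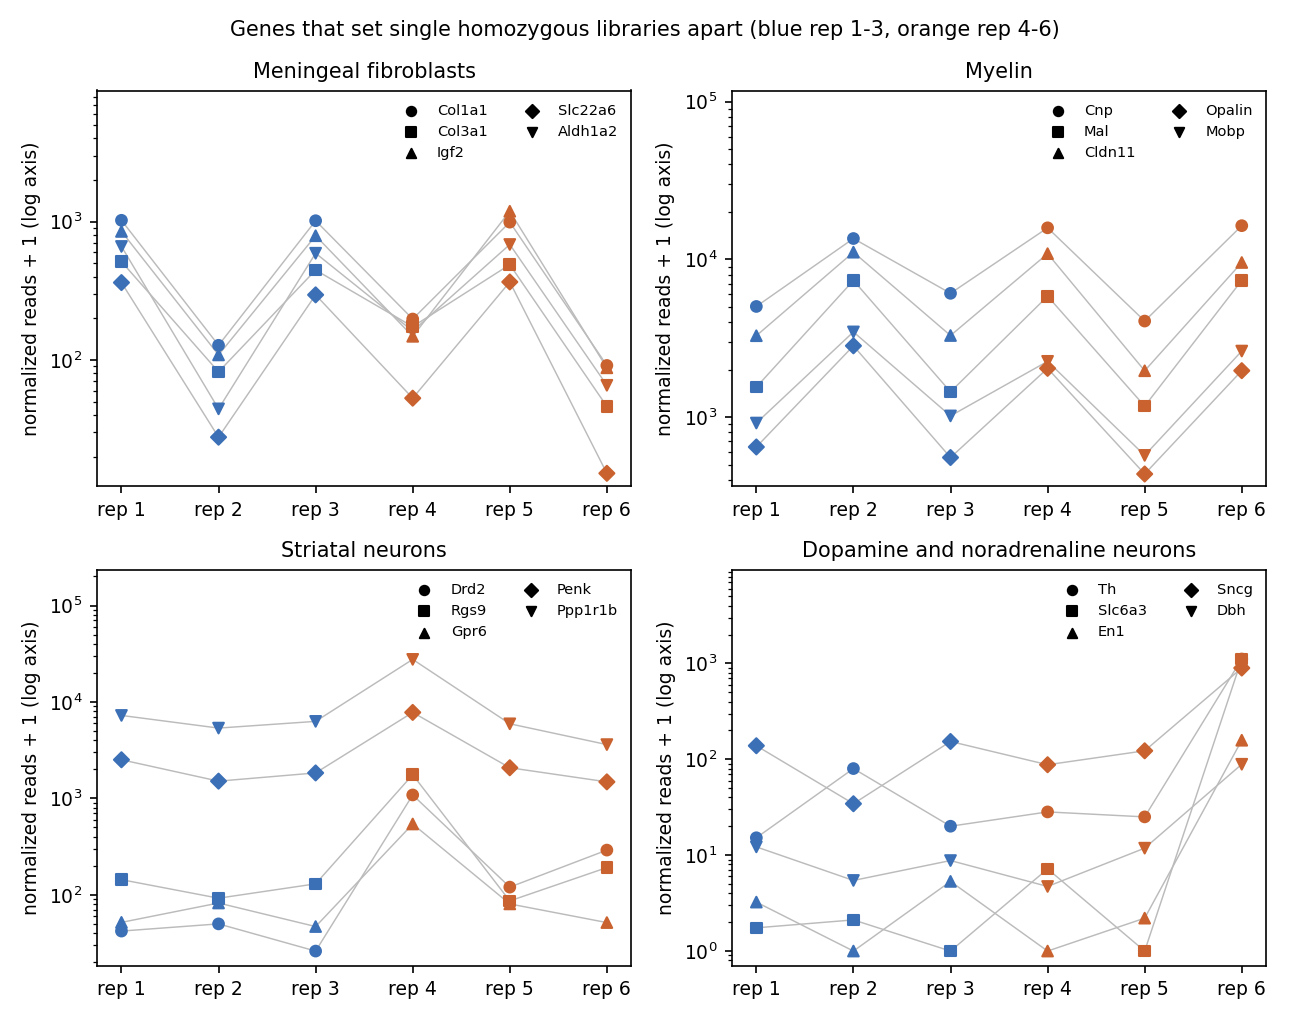
Points give normalized reads plus 1 on a log axis in each homozygous library for 5 genes of each of 4 groups, with replicates 1 to 3 in blue and replicates 4 to 6 in orange and a thin line joining the points of 1 gene. Meningeal genes are high in replicates 1, 3 and 5, myelin genes in replicates 2, 4 and 6, striatal genes in replicate 4, and dopamine and noradrenaline genes in replicate 6.

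Replicate 4 stood apart in genes of striatal neurons, the projection neurons of the basal ganglia. All 9 features tested of the 12 on the list were highest there, beside 14.9% of all features, and the list mean was 7.19, 6.61, 6.93, 9.33, 6.98 and 7.005 in replicates 1 to 6. Drd2, the D2 dopamine receptor, held 41.1, 49, 25.1, 1084, 119 and 289.9. Rgs9, which shortens signals of that receptor, held 1758 in replicate 4 and 85.5 to 191 in the other 5. Ppp1r1b, which encodes DARPP-32, held 7244, 5356, 6286, 27626, 5933 and 3611, and Gpr6, an orphan receptor of the same neurons, held 541 against 45.9 to 81.2. All 4 genes were far higher in replicate 4 than in any other library, and Drd2 was next highest in replicate 6 and then 5.

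Between the sets all 9 striatal features had a positive difference (median 0.58), and none passed in limma. Drd2 had a log2 difference of 3.14 (SE 0.68, limma adjusted p = 0.785), and DESeq2 called it. Penk, the precursor of enkephalins, held 2513, 1508, 1835, 7785, 2076 and 1482, a difference of 0.59 that became -0.12 without replicate 4. Without that library the median of the list was -0.17. The transcription factors Isl1 and Lhx8, both of basal forebrain development, were also at least 4-fold higher in replicate 4, at 66.9 against 0 to 1.73 and 57 against 0 to 2.6.

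Replicate 6 stood apart in genes of dopamine and noradrenaline neurons, whose cell bodies lie in the midbrain and the hindbrain. This list was drawn up after its leading genes were seen, and 8 of its 9 tested features were highest in replicate 6, beside 21.6% of all features. Because of how the list was made, its count is not read against that share. Th, the enzyme that makes the precursor of dopamine, held 14.2, 79, 19, 27.3, 24.1 and 1109.9 in replicates 1 to 6. Slc6a3, the dopamine transporter, held 0.75, 1.11, 0, 6.19, 0 and 1111. En1 and Pitx3, transcription factors of midbrain dopamine neurons, held 157 and 43.4 in replicate 6 against at most 4.33 and 8.65 in the others. In each of these genes replicate 6 was above the other 5 libraries, of which Th was highest in replicate 2.

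Dbh, which turns dopamine into noradrenaline, held 87.8 in replicate 6 against 3.72 to 11.2 in the other 5, and Slc6a2, the noradrenaline transporter, held 81.6 against 0 to 8.21. Hoxb3, a gene of hindbrain identity, held 55.9 against 0 to 4.48. Slc17a6, the vesicular glutamate transporter of thalamus and brainstem, held 688, 342, 359, 149, 165 and 3129 in replicates 1 to 6. Spp1, which encodes osteopontin, held 51.5, 6.68, 44.1, 38.4, 46.9 and 1598. Each of these was highest in replicate 6, and Spp1 was in turn lowest in replicate 2. Of 31 features with a mean of at least 5 listed only in set 2, Pou4f2, Chrna6 and Sox14 had 162, 116 and 82 recovered reads, all of them in replicate 6.

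Among the homozygous libraries, replicate 5 stood apart in genes of motile cilia, the beating hairs of ependymal cells that line the ventricles. The list was likewise drawn up after its leading genes were seen. Of 20 features tested 16 were lowest in replicate 5, beside 17.7% of all features, and 17 were highest in replicate 3, beside 15.7%. For the same reason these counts are not read against those shares. Dnah6, a motor of the ciliary shaft, held 25.4, 21.1, 57.1, 22.3, 3.61 and 34.6 in replicates 1 to 6, and Ak7, an adenylate kinase of cilia, held 20.9, 40.1, 67.5, 27.3, 3.61 and 30.1. Tmem212 held 11.2, 12.2, 38.9, 17.3, 0 and 38.1. Replicate 5 was at or near 0 in all 3, while replicate 3 held the most. None of the 20 features passed between the sets. As log2 of normalized reads plus 1, the list mean was 2.52 in replicate 5. It was 5.47 and 2.67 in the heterozygous libraries and 4.06, 3.23 and 5.38 in the wild-type ones, so a low level was not particular to replicate 5. The list of choroid plexus and ependyma was lowest in replicate 2, at 3.33, with replicate 5 at 3.39.

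**Figure D5:**
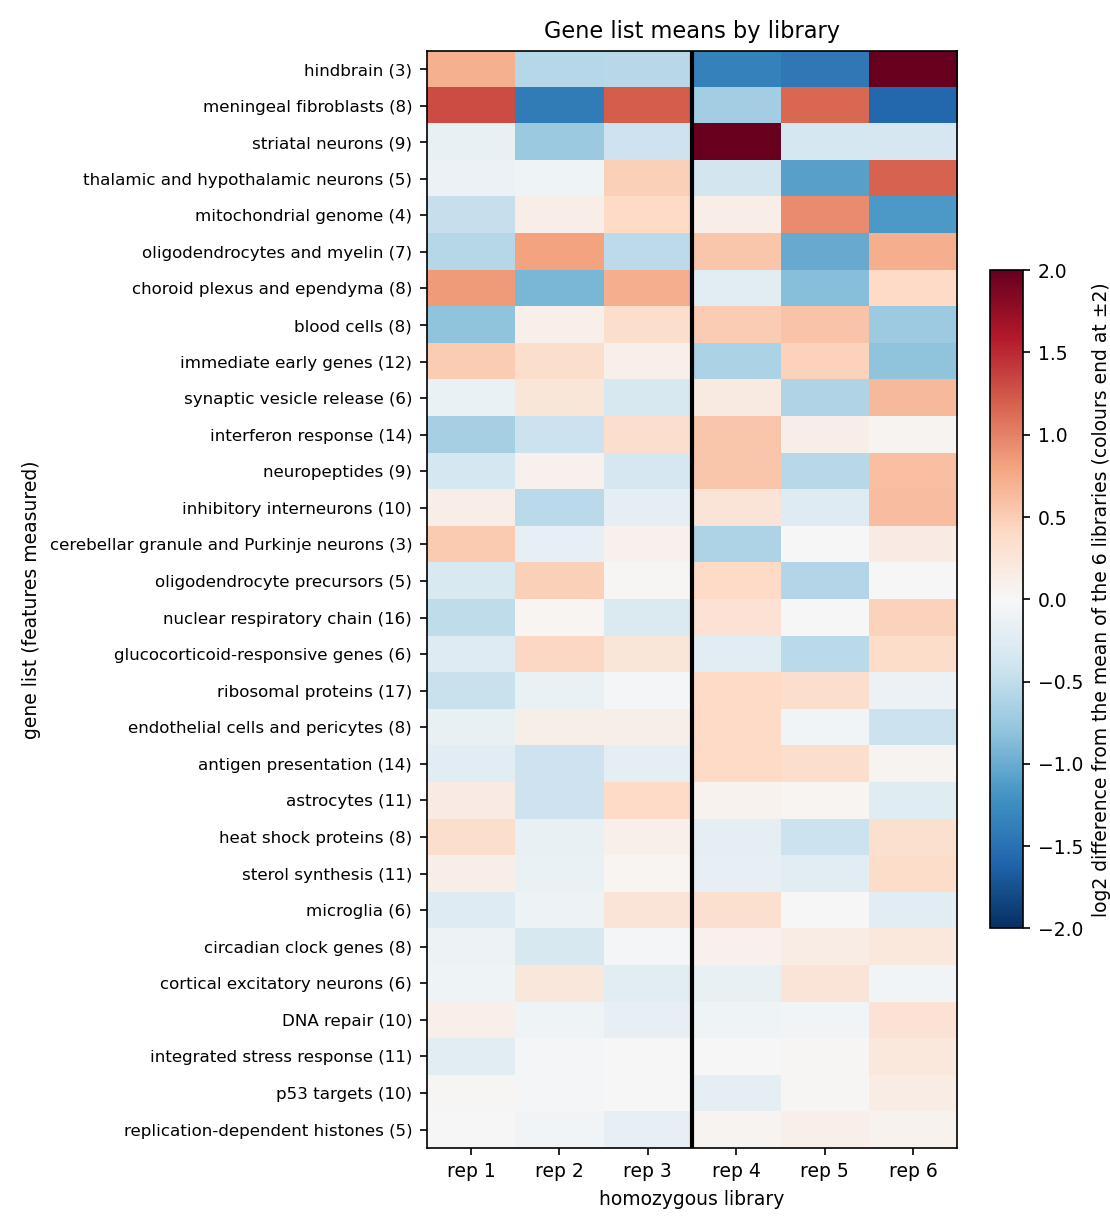
Rows are gene lists, with the number of features measured in brackets, and columns are the 6 homozygous libraries. Colour gives the list mean in each library minus its mean over the 6, on the log2 scale, with colours ending at ±2. In the striatal list 1 library stands out, replicate 4 at 9.33, while the meningeal list is high in replicates 1, 3 and 5, on both sides of the black line between the sets.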

How the data were processed

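RNA was sequenced in 11 rat brain libraries, of which the 6 homozygous ones are compared here by their title numbers. The build rn6, HISAT2 2.0.4 and FastQC are named in the submitters' processing notes. For the counter, its annotation and its use of strand the entry is: not given in the sources used here. Each deposited table gives a normalized read signal per feature, which the authors had scaled by 1 size factor per library and in 2 separate sets. At a tolerance of 0.001 reads, 100% of the deposited signal values were whole multiples of the smallest nonzero value, so reads were recovered (8723823, 6028086, 7458681, 5450053, 5766512 and 7813701 in replicates 1 to 6) and rescaled by median-of-ratios factors over the 6 libraries.

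Features listed in all 6 with a mean of at least 5 were tested with limma 3.58.1 (R 4.3.3, mean-variance trend, two-sided) on log2(value + 1), which understates changes at few reads. Calls had a p under 0.05 after Benjamini-Hochberg adjustment over all 16054 features. On the recovered reads, edgeR 4.0.16 (quasi-likelihood) called 2 features, DESeq2 1.42.0 called 29 and limma-voom 0. The fits were first tested on simulated data, where limma recovered most of the larger changes and few of the smaller ones, and DESeq2 made more false calls than limma or edgeR. Other alternatives were the pseudocount, the minimum mean, TMM factors, the deposited scaling, all 11 libraries in 1 fit, Ensembl features alone, an Eif2s3y covariate and leaving out each library. Read intervals are exact and cover counting error only.

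The libraries, lists and tests were chosen with earlier results of these data known, and 2 of the lists after values were seen here. Of 31 other lists, 13 are described. Named are Ercc6, up to 12 genes per direction past the threshold or else the 4 with the smallest p, the 12 with the largest SD (mean of at least 50), the 6 with the smallest SD (mean of at least 1000), and in each described list up to 4 members by p and by SD. Genes that set 1 library apart, Tbr1, Pou4f2, Chrna6 and Sox14 were named after their values were seen. Arc, B2m, Col3a1, Ppp1r1b and the cerebellar and cortical markers were named outside this rule. Names starting with LOC, RGD, AABR or AC0 were left out. Of the genes this rule names, 2 are not reported here. Promoters are those of RefSeq, GRCr8, matched by symbol, and their coordinates are not those of rn6.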

Additional observations from a re-analysis of the deposited data

Results flagged for a closer look

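In each item named or described, the gap between the highest or lowest of the 6 libraries and its neighbour was set against the whole range, for genes as log2 of normalized reads plus 1. Of 112 items, 10 had a gap above the 95% critical value for 6 samples. Chance gives about 1 in 20 in groups not chosen for their spread, but all 9 genes among the 10 had been named for a large SD over these libraries, so their number is not read against that share.

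Replicate 4 held 7 of the 10. It was far above the other 5 in Gpr6 (541 normalized reads), Rgs9 (1758), Penk (7785), Dlx5 (169.7) and Rpl38 (182), in the mean of the striatal list (9.33 as log2 of normalized reads plus 1), and far below them in Nr4a3 (1.24), an immediate early gene. The striatal genes among these are one pattern rather than separate items, since they share a list. Dlx5 is a transcription factor of forebrain GABA neurons. The next highest library held 70.9 reads of Dlx5 and 66.8 of Rpl38.

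Replicate 6 was far above the others in Slc6a3 (1111) and Spp1 (1598). Replicate 5 was far below them in Tmem212, which was at 0 there. Replicates 1, 2 and 3, all of set 1, had no such item.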

How the results depend on the processing

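No paired analysis was possible because the sets carry the title numbers 1 to 3 and 4 to 6 and so share no replicate number. The count of features past the threshold between the sets was 3 in limma. It was 6 with a minimum mean of 1 and 6 with none, 1 with a minimum of 20, 29 in DESeq2 (20 higher and 9 lower), 0 in limma-voom and 0 with Ensembl features alone, where 394 had an unadjusted p under 0.05. It ran from 0 to 6 when 1 library was left out, with 0 without replicate 2 or replicate 4, though none of the 3 calls was among the 2 made without replicate 1 or the 2 made without replicate 3. Homozygous replicates 4 to 6 against wild type gave 51 in DESeq2. Homozygous replicates 1 to 3 against heterozygous gave 8 in edgeR, 399 in DESeq2 and 8 with a minimum mean of 1. The higher count in set 2 ran from 0 to 20 and the lower from 0 to 9 over all settings. The median SD over the 6 libraries was 0.39 with a pseudocount of 5, 0.55 with a minimum mean of 1, 0.37 with 20 and 0.57 with none. Over named features and settings, the log2 difference kept its side of the threshold in 728 cases, newly passed it in 6, no longer passed in 19 and changed sign in 1, that of Penk, which ran from -0.122 without replicate 4 to 1.07 without replicate 6. With about 5 to 20 reads per feature, where the median SD was 0.70, the spread leaves room for large differences alone to pass with 3 libraries a side.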

Other observations

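Other genes varied between single libraries in ways not yet described. Irs4, an insulin receptor substrate on the X chromosome, held 96.3, 0, 129, 3.72, 9.63 and 153 normalized reads in replicates 1 to 6. Cdh1, which encodes the adhesion protein E-cadherin, held 163, 1.11, 96, 24.8, 202 and 4.43, with its highest value in replicate 5 and its lowest in replicate 2. Sptlc3, a subunit of the enzyme that starts sphingolipid synthesis, held 230.0, 1.11, 76.1, 4.96, 2.41 and 7.09, so replicates 1 and 3 stood above the other 4. Ndufa1, a complex I subunit encoded on the X chromosome, held 12.7, 334, 32, 224, 39.7 and 564, and replicates 2, 4 and 6 were the high ones as for myelin genes. Calb2, which marks calretinin interneurons, held 109, 12.2, 57.1, 21.1, 16.9 and 371.

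MGC94199 held 225, 185, 2.6, 182, 6.02 and 6.21, with replicates 3, 5 and 6 near 0 and the others near 200, so that both sets held both levels. Gnas held 49.3, 0, 50.2, 6.19, 2.41 and 447 and Tprkb held 14.2, 16.7, 131, 9.91, 1.2 and 149. Gnas lies under 4 other features on its strand and Tprkb under 2, so reads could be divided among them. Alb, the serum protein albumin, held 8.96, 293, 67.5, 312, 136 and 70.9, and was lowest in replicate 1.

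The heterozygous libraries also differed in sex-linked reads. Heterozygous replicate 1 held 0 of Eif2s3y and 1.31 of the unnamed X-linked feature at 74314653 to 74347926, and was the one library of the series that was low in both. Heterozygous replicate 2 held 855 and 0, and the 3 wild-type libraries held 0 of the first and 2285, 1828 and 2867 of the second.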
